A study of Homo sapiens with 18 samples.

Results

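The replication-dependent histone genes on the short arm of human chromosome 6 were examined for chromatin accessibility in cultured cells of squamous cell carcinoma of the head and neck (HNSCC). A member was any deposited accessible region lying within 1 kb of an annotated transcription start site of a protein-coding gene whose symbol begins with H1-, H2AC, H2BC, H3C or H4C, between 26000000 and 28000000 on chromosome 6 of the hg19 (GRCh37) build. This gave 47 of the 115087 regions in the series, at 47 of the 49 genes that carry such a symbol there. H1-6, a testis form of the linker histone, and H4C7 had no region. H2AC1 and H2BC1 lie outside the interval. The rule also leaves out genes inside it that the annotation used does not list under such a symbol: H4C2, which it lists as HIST1H4B, and H2BC7, H2BC8 and H4C6, whose starts RefSeq gives.

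Replication-dependent histone genes supply the proteins that package newly copied DNA. H2A, H2B, H3 and H4 form the core of the nucleosome, and H1 binds the DNA that links nucleosomes. Their genes have no introns, are transcribed in S phase at a nuclear structure called the histone locus body, and give messenger RNAs that end in a stem-loop in place of a poly(A) tail. Many copies sit close together on chromosome 6, and H2A and H2B genes often share a promoter in divergent orientation.

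ATAC-seq, which reads where the transposase Tn5 can reach the DNA and so where chromatin is open, had been run on the HNSCC cell lines SCC1, SCC6 and SCC25 after 5 days with 100 nM cetuximab, an antibody that blocks the epidermal growth factor receptor, or with PBS as the untreated control. The files used held 17 libraries, 3 in each group and 2 in SCC1 PBS, whose replicate 2 was not analysed here. The study asked whether cetuximab alters chromatin within days. Each line is an established culture, the labels do not say whether replicates came from separate cultures, and p-values therefore measure only the spread between these libraries, which may be technical. In a bulk culture, the share of cells in which a region is open and its openness per cell cannot be told apart.

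The 250 bases before the RefSeq start site of 6 member genes are shown because the results below turn on them or set families apart: H1-1 (chr6:26018016-26018265, minus strand), H2AC14 (chr6:27782556-27782805, minus strand), H2AC16 (chr6:27832845-27833094, plus strand), H2BC6 (chr6:26183739-26183988, plus strand), H3C6 (chr6:26224156-26224405, plus strand) and H4C8 (chr6:26285763-26286012, minus strand). The sequences are RefSeq promoters of GRCh38.p14, placed in GRCh37 by exact match, and run 5′ to 3′ on the gene's strand. Capitals mark every match, on either strand, to 4 motifs: TATAAA (the TATA box), CCAAT (the CCAAT box), ATGCAAAT (the octamer, reverse complement ATTTGCAT) and AAACACA (the H1 box).
H1-1: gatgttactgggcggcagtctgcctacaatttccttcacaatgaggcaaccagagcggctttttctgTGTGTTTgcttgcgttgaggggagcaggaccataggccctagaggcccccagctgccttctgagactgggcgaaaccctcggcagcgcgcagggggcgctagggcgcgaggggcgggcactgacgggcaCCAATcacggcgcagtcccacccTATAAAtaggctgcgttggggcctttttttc
H2AC14: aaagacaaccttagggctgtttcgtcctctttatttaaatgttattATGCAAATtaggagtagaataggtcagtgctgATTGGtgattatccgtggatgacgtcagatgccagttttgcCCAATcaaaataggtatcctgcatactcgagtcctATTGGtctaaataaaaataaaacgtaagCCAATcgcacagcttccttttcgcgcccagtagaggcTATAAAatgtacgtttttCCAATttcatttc
H2AC16: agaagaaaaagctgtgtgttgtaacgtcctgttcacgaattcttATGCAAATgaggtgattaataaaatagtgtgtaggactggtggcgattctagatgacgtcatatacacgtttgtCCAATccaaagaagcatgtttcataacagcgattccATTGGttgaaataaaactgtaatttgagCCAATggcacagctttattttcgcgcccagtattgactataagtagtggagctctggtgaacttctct
H2BC6: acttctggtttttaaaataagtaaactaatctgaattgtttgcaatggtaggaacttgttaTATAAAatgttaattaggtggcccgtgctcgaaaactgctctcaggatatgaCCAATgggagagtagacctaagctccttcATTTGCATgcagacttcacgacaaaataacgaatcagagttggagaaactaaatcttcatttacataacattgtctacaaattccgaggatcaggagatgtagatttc
H3C6: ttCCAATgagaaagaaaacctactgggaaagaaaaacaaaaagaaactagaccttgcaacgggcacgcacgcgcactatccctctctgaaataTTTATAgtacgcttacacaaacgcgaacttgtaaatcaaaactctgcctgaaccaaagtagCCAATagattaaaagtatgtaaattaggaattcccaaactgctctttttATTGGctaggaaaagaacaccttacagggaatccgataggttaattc
H4C8: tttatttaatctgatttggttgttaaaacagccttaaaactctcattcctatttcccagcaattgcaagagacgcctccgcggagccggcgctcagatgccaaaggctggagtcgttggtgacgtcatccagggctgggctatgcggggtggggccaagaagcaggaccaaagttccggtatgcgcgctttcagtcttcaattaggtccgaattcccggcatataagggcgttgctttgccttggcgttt

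The families differed in these letters. A RefSeq promoter was matched for 44 of the 49 genes, and where RefSeq gives more than 1 start the one nearest the annotated start of the gene was used. The AAACACA motif was present upstream of 6 of 6 H1 genes and of none of the core histone genes, against 4.82% of the 35116 RefSeq promoters of the same length. The octamer was present at 8 of 10 H2A genes, 9 of 12 H2B genes and no H1, H3 or H4 gene, against 1.63% of all promoters. Divergent H2A and H2B genes such as H2AC11 and H2BC11 share most of these bases, so the same match can count in both families. CCAAT was found at every matched H1, H2A, H2B and H3 gene but at 2 of 8 H4 genes, against 32% of all promoters, and TATAAA at 30 of 44 genes, against 10.7%. H4C8 above holds none of the 4 motifs, which says only that these letters are not in that window.

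The member regions fell into 3 blocks separated by more than 500000 bases. The first, chr6:26017833-26286203, held 29 regions, the second, chr6:27099376-27115322, held 4, and the third, chr6:27775389-27862356, held 14. Of the 47 regions, 41 lay over an annotated start site and 6 lay 337 to 1000 bases from the nearest one. Within 1 kb, 33 had 1 member gene and 14 had 2 or more, so the signal of the latter cannot be assigned to 1 gene. Of the 33, the H2AC7 and H2AC8 regions also hold the RefSeq starts of H2BC7 and H2BC8, which the rule does not count. Regions are named here by the gene or genes whose start is nearest, with "upstream" or "downstream" on the gene's strand where the same gene has a region on each side.

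Histone regions carried signal in untreated cells of each line, with medians per kb of 150 in SCC1, 222 in SCC6 and 127 in SCC25. Signal is the deposited value, a number of reads scaled for the size and composition of the library. It is given per kb where regions are compared with each other, except in the ranking within families. The mean signal per kb over all libraries had a median of 171 over the 47 regions, against 155 over the 15528 promoter regions of protein-coding genes and 89.6 over all regions. Their median GC content was 51.9%, below the 65.1% of promoter regions and above the 45.9% of all regions. Single H2B regions had a median of 186 per kb, shared H2A/H2B regions 206, H1 regions 194, H3 regions 163 and H4 regions 141, and the ranges of the families overlapped.

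**Figure D1:**
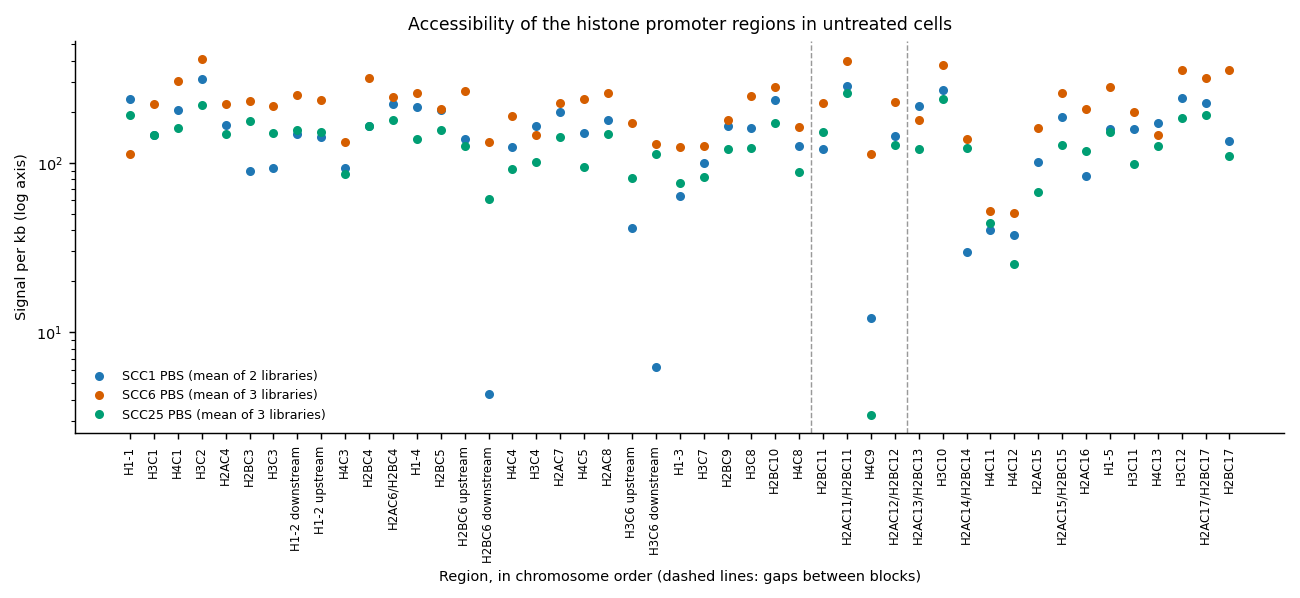
Mean signal per kb (log axis) of the 47 histone regions in untreated SCC1 (2 libraries), SCC6 (3) and SCC25 (3), in chromosome order, with dashed lines at the gaps between blocks. Most SCC6 points lie above the others, H2BC6 downstream and H3C6 downstream are far lower in SCC1, and H4C9 is far higher in SCC6.

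The regions with the highest mean signal of each family had a signal of at least 64.9 in every PBS library. They were ranked by signal over the whole region, not per kb, which favours wide regions. H2AC11/H2BC11, the shared promoter of an H2A and an H2B gene, led both of those families, with signals of 216 and 218 in SCC1 PBS, 317, 295 and 297 in SCC6 PBS, and 175, 229 and 183 in SCC25 PBS. H4C1 led the H4 genes, with 141 and 94.9 in SCC1 PBS, 179, 169 and 177 in SCC6 PBS, and 103, 95.2 and 79.7 in SCC25 PBS. H3C7 led the H3 genes, with 76.8 and 96 in SCC1 PBS, 112, 97 and 117 in SCC6 PBS, and 81.4, 64.9 and 67.9 in SCC25 PBS, and a peak was called there in 2 of the 8 PBS libraries. The H3C7 region is 871 bases wide, and its mean signal per kb was 112, below the H3 median of 163. At H2AC11/H2BC11 and H4C1 every SCC6 PBS library lay above every PBS library of the other lines. H1-2 downstream, which lies 863 bases from the start of this somatic linker histone gene, led the H1 genes, with 82 and 107 in SCC1 PBS, 145, 159 and 177 in SCC6 PBS, and 103, 98.1 and 97.6 in SCC25 PBS.

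Peaks called library by library covered 4 to 46 of the 47 regions, fewest in the shallowest library, SCC1 cetuximab replicate 2, and most in the deepest, SCC6 cetuximab replicate 3. In 4 regions a peak was called in all 17 libraries: H2BC10, H2AC11/H2BC11, H2AC12/H2BC12 and H2AC15/H2BC15. At H2BC10 its fold enrichment over the local background, as deposited, ran from 2.52 to 6.31 in SCC25 PBS and from 3.69 to 7.57 in SCC1 cetuximab. Since peak counts moved with depth, comparisons below use the signal of all libraries.

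Reads in regions ranged from 2194851 to 15017130 per library and reads in the 47 histone regions from 2077 to 15111, so that between 0.0659% and 0.114% of reads in regions fell there. Of the 7 squamous markers examined, each had a promoter region. Those of KRT14 (1.09 to 2.68) and DSG3 (0.669 to 1.21) were near 0 in the SCC6 PBS libraries, against a signal of at least 31.4 in every PBS library of the other lines. A KRT5 region (1.21 to 5.44) and KRT6A (6.53 to 13.3) were also low there, against at least 23.4 and 19.5. All 9 squamous regions were lower in untreated SCC6 than in SCC1 by sign, with a median log2 difference of -1.38. At a limma adjusted p under 0.05, 7 were lower, or 77.8%, against 19.6% of promoters. Of 8 markers of leukocytes, endothelium and fibroblasts, COL1A1 and COL1A2 had a promoter region and 6 had none; the summed signal of those regions was 122 to 159 in SCC1 PBS, 116 to 118 in SCC6 PBS and 148 to 173 in SCC25 PBS.

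The comparisons of untreated lines share libraries with each other and with the treatment comparisons, in which the same PBS libraries are the controls, so their values are not independent. More histone regions were called between untreated lines than between treated and untreated cells of any 1 line. Between untreated SCC6 and SCC1, 28 histone regions were higher in SCC6 and 1 was lower, of 47 tested (limma on log2 of signal plus 1, Benjamini-Hochberg adjusted p under 0.05 over all regions). That is 59.6% higher. Of all 86315 tested regions 63.4% were called, 36.7% higher and 26.7% lower, and of 14346 promoters 48.0% were called, 28.3% higher and 19.6% lower. The median log2 difference was 0.57 over the histone regions, 0.12 over all regions and 0.070 over promoters. By edgeR on the recovered reads 21 of 47 were higher and 2 lower, against 29609 and 27611 of all 86315 regions. DESeq2 called 14 of 47 higher and 2 lower, against 26079 and 23951 of all 86315. By DESeq2 the share called higher was thus no larger than over all regions. With the GC trend of each library removed, the median of the histone regions was 0.96.

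Each family took part. Of regions tested between SCC6 and SCC1, 4 of 6 H1 regions, 2 of 5 H2A, 6 of 9 H2B, 5 of 7 shared H2A/H2B, 6 of 11 H3 and 5 of 9 H4 regions were higher in SCC6. The block medians were 0.59, 0.77 and 0.56 on the log2 scale, in chromosome order.

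The largest differences between SCC6 and SCC1, at H2BC6 downstream and H3C6 downstream, lay over start sites that were near the detection floor in SCC1. H2BC6 encodes a core histone H2B, and its downstream region (chr6:26183755-26184290) lies over the RefSeq start whose upstream bases are shown above. It had a signal of 1.3 and 3.35 in SCC1 PBS, 62.8, 63.6 and 85.9 in SCC6 PBS, and 37.7, 25.2 and 35.6 in SCC25 PBS. The lines did not overlap, and the 5 SCC1 libraries, treated ones included, reached at most 10.2. The log2 difference was 4.49 (SE 0.38, limma adjusted p = 2.6e-05) for SCC6 against SCC1 and 3.40 (SE 0.45, limma adjusted p = 3.4e-05) for SCC25 against SCC1.

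These values in SCC1 rest on few reads. The SCC1 PBS libraries held 4 reads there in all, against 226 in SCC6 PBS, a ratio of scaled reads of 29 with a 95% interval from 11.2 to 107 that covers counting error only. Against SCC25 PBS, with 177 reads, the ratio was 14.1 (5.41 to 52.4). No peak was called there in the 5 SCC1 libraries, and a peak was called in 5 SCC6 and 2 SCC25 libraries.

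The upstream region of the same gene (chr6:26172053-26172629), over an earlier annotated start, was open in all lines. Its signal was 71.6 and 88.2 in SCC1 PBS, 164, 139 and 157 in SCC6 PBS, and 82.9, 62.7 and 71.3 in SCC25 PBS. SCC1 and SCC25 overlapped there, with a log2 difference of -0.14 (limma adjusted p = 0.548), and SCC6 lay above both.

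H3C6, a core histone H3 gene, was also lowest in SCC1. Its downstream region (chr6:26225201-26225679) had a signal of 2.6 and 3.35 in SCC1 PBS, 65.2, 52.9 and 68.5 in SCC6 PBS, and 38.4, 68.5 and 55.1 in SCC25 PBS. SCC1 lay far below the other lines, which overlapped each other. The log2 difference from SCC1 was 3.99 (SE 0.32, limma adjusted p = 2.0e-05) in SCC6 and 3.76 (SE 0.38, limma adjusted p = 3.7e-06) in SCC25. The SCC1 PBS libraries held 5 reads in all, and the ratio of scaled reads was 20.1 (8.48 to 62.7) for SCC6 and 16.7 (7.07 to 51.9) for SCC25. Peaks were called there in 1 of 6 SCC6 libraries, none of them PBS, in 4 of 6 SCC25 libraries and in no SCC1 library. The upstream region of H3C6 (chr6:26224045-26224584), over the RefSeq start, was likewise lowest in SCC1, at 29.9 and 14.5, against 93, 87 and 97.9 in SCC6 PBS and 43, 36.8 and 52.6 in SCC25 PBS. The lines did not overlap there, and the log2 differences from SCC1 were 2.09 (limma adjusted p = 0.00035) in SCC6 and 1.03 (limma adjusted p = 0.0154) in SCC25.

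H2AC14 and H2BC14 are divergent genes that share 1 region (chr6:27782232-27783137) in the third block. Its signal was 27.3 and 26.8 in SCC1 PBS, 127, 114 and 134 in SCC6 PBS, and 106, 107 and 118 in SCC25 PBS. SCC1 again lay below every library of the other lines, by a log2 difference of 2.16 (SE 0.18, limma adjusted p = 2.2e-05) from SCC6 and 1.99 (SE 0.19, limma adjusted p = 2.3e-06) from SCC25. A peak was called in all 12 SCC6 and SCC25 libraries and in 1 of 5 SCC1 libraries. H2BC3, an H2B gene in the first block, was lower in SCC1 too, at 72.9 and 50.2, against 151, 150 and 175 in SCC6 PBS and 115, 120 and 131 in SCC25 PBS.

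**Figure D2:**
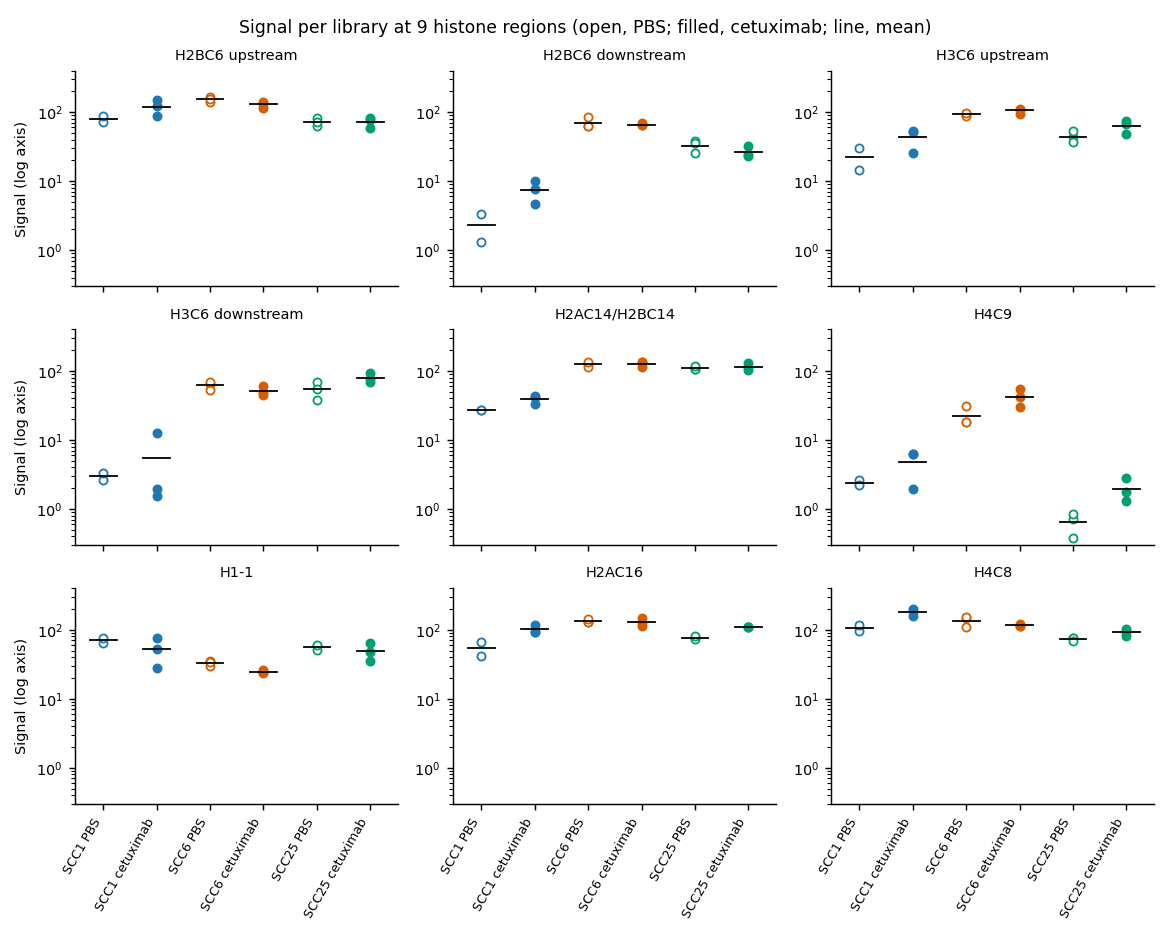
Signal (log axis) of 9 histone regions in each library, with open points for PBS, filled points for cetuximab and a line at the group mean. H2BC6 downstream and H3C6 downstream stay at or below 12.7 in SCC1 libraries, H4C9 stays at or below 6.35 outside SCC6, and H1-1 is lowest in SCC6 among the PBS libraries.

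H4C9, a core histone H4 gene, had a 200-base region (chr6:27106525-27106724) that lies 337 bases from the nearest start, with the lowest GC content of the members, 34%. Its signal was 18.1, 30.8 and 18.5 in SCC6 PBS, 2.6 and 2.23 in SCC1 PBS, and 0.377, 0.721 and 0.848 in SCC25 PBS, where each library is at the floor of 1 read. SCC6 lay above all other libraries, with a log2 difference from SCC1 of 2.74 (limma adjusted p = 0.000314). The filter on low signal took the mean over both lines, 22.5 in SCC6 PBS and 2.42 in SCC1 PBS. Most of that mean came from SCC6, so the test is not independent of the high signal there. The SCC1 PBS libraries held 4 reads in all, and the ratio of scaled reads was 10 (3.76 to 37.7). The region was among the 25% of regions with the lowest mean signal in every comparison with SCC25 libraries alone or with 1 other line, and it was not tested there.

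H1-1, a linker histone gene that is expressed in few tissues, went the other way. Its region (chr6:26017833-26018125) had a signal of 65.1 and 74.8 in SCC1 PBS, 30.2, 35.5 and 33.7 in SCC6 PBS, and 58.4, 51.2 and 59.4 in SCC25 PBS. SCC6 lay below both other lines, by a log2 difference of -1.06 (SE 0.22, limma adjusted p = 0.00301) from SCC1, and SCC25 lay above SCC6 by 0.75 (SE 0.20, limma adjusted p = 0.004). It was the 1 region called lower in SCC6 than in SCC1 and the 1 region called higher in SCC25 than in SCC6. With the GC trend removed, the second of these had a limma adjusted p of 0.0547. A peak was called at H1-1 in 2 of the 17 libraries, both of them SCC25 PBS.

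Untreated SCC25 was lower than untreated SCC6 at 45 of 46 tested histone regions and lower than untreated SCC1 at 33 of 46, by the sign of the difference alone. By sign, SCC25 was lower than SCC6 at 9517 of 14367 promoters and 43035 of all 86315 regions. It was lower than SCC1 at 8654 of 14547 promoters and 40438 of all 86315 regions. Against SCC6, 40 regions were lower and 1 was higher of 46 tested, or 87% lower. Of all tested regions 72.0% were called, 36.9% higher and 35.1% lower, and of 14367 promoters 63.2% were called, 19.4% higher and 43.8% lower. The median log2 difference was -0.71, against 0.0050 over all regions and -0.30 over promoters. edgeR and DESeq2 each called 41 lower and 1 higher. Over all 86315 regions edgeR called 32195 lower and 32627 higher, and DESeq2 29832 lower and 30516 higher. All 9 H2B, all 5 H2A, 10 of 11 H3, 6 of 7 shared H2A/H2B, 5 of 6 H1 and 5 of 8 H4 regions were lower in SCC25.

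The clearest of these were at core histone genes. H2AC15/H2BC15, a divergent promoter in the third block (chr6:27805929-27806664), had a signal of 179, 195 and 198 in SCC6 PBS and 102, 95.9 and 84 in SCC25 PBS. The H4 gene H4C5 (chr6:26204562-26205099) had 117, 138 and 128 in SCC6 PBS and 60.3, 46.9 and 45.8 in SCC25 PBS. Neither overlapped, and the log2 differences were -1.01 (SE 0.12, limma adjusted p = 4.0e-06) and -1.32 (SE 0.16, limma adjusted p = 4.2e-06). H2BC6 upstream followed at -1.08 (SE 0.15, limma adjusted p = 1.1e-05).

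SCC25 and SCC1 differed in both directions. Against SCC1, 6 regions were higher and 10 lower of 46 tested, or 13% and 21.7%. Of all regions 58.7% were called, 33.9% higher and 24.8% lower, and of 14547 promoters 52.5% were called, 20.3% higher and 32.2% lower. The shares of the histone regions were thus no larger than those of promoters. The median log2 difference was -0.27, against 0.10 over all regions and -0.17 over promoters. With each library centred on its median, 4 were higher and 23 lower, a setting whose shares over all regions were not compared. With edgeR 6 were higher and 17 lower, against 27193 and 25770 of all 86315 regions. With DESeq2 4 were higher and 12 lower, against 23324 and 22395. Without SCC1 PBS replicate 1, 21 were called, and without SCC25 PBS replicate 3, 9 were. Shares over all regions with a library left out were not compared.

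Among the lower ones, the H2AC13/H2BC13 region (chr6:27775389-27776299) had a signal of 213 and 180 in SCC1 PBS and 118, 118 and 95 in SCC25 PBS. Its log2 difference was -0.83 (SE 0.15, limma adjusted p = 0.000457). H2AC15/H2BC15 differed by -0.55 (SE 0.16, limma adjusted p = 0.00842), with 134 and 142 in SCC1 PBS, and the H3 gene H3C4 (chr6:26197230-26197689) by -0.69 (SE 0.20, limma adjusted p = 0.0101), with 70.3 and 81.5 in SCC1 PBS and 46.4, 48.3 and 45 in SCC25 PBS. The groups did not overlap in these 3 regions.

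Promoters of other genes in the same interval moved with some of these differences. Of 17 other protein-coding genes there, 12 had a promoter region, and 10 regions passed the filter on low signal. Between SCC25 and SCC6, 8 of the 10 were lower and none higher, with a median log2 difference of -0.71, the same value as over the histone regions. BTN2A1, a butyrophilin gene, differed by -0.73 (limma adjusted p = 0.000287) and HMGN4, a nucleosome-binding protein gene, by -0.31 (limma adjusted p = 0.0145). Between SCC6 and SCC1, 3 of the 10 were higher and none lower, with a median of 0.13, below the 0.57 of the histone regions. Between SCC25 and SCC1, 4 were lower and none higher, with a median of -0.50. The number of copies of this interval in each line was not measured, and copy number and accessibility cannot be told apart in these values.

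**Figure D3:**
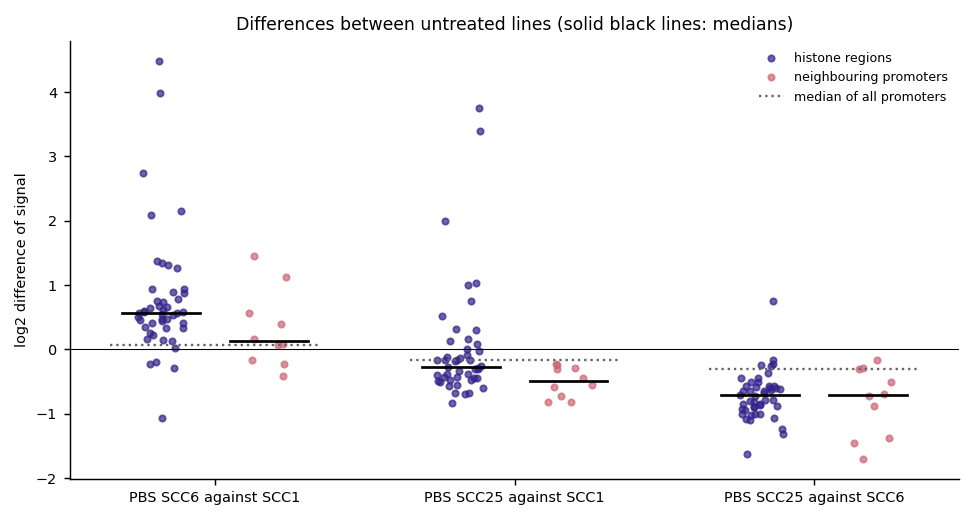
Log2 difference of signal between untreated lines for each tested histone region and each tested promoter of other genes in the same interval, with solid lines at their medians and dotted lines at the median of all promoters. Histone medians were 0.57, -0.27 and -0.71 from left to right, and H2BC6 downstream and H3C6 downstream form the upper points of the first 2 comparisons.

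Histone genes elsewhere and the factors that act on them were read beside the cluster. Of 17 replication-dependent histone genes outside it, 11 had a region within 1 kb, in 10 regions, and 7 of those were at the floor of 1 read in every library. Among the 3 tested, H2AC25/H2BC26, a divergent promoter outside chromosome 6, was higher in SCC6 than in SCC1 (0.63, limma adjusted p = 0.017) and lower in SCC25 than in SCC6 (-0.83, limma adjusted p = 8.6e-05). Of promoter regions of replication-independent histone variants, 1 of 11 was higher and 1 lower in SCC6 than in SCC1, and 3 of 10 were higher and 4 lower in SCC25 than in SCC6. Of those of histone locus body factors, such as NPAT, the coactivator of these genes, 6 of 23 were higher and 5 lower in SCC6 than in SCC1, and 4 of 22 were higher and 10 lower in SCC25 than in SCC6. Median log2 differences for SCC6 against SCC1 were -0.20 for the variants and -0.087 for the factors.

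Cetuximab was followed by small shifts in the share of reads that fell in the cluster. In SCC1 the share was 0.0747% and 0.0823% with PBS and 0.101%, 0.0946% and 0.112% with cetuximab. In SCC25 it was 0.0659%, 0.07% and 0.0683% with PBS and 0.0774%, 0.0821% and 0.0838% with cetuximab. In SCC6 it was 0.103%, 0.11% and 0.114% with PBS and 0.0935%, 0.0969% and 0.101% with cetuximab. The treated libraries were thus above the untreated ones in SCC1 and SCC25 and below them in SCC6, without overlap. The median signal of all promoters differed as well, at 70.3 and 73.7 with PBS against 92.7, 75.9 and 93.9 with cetuximab in SCC1. It was 77.3, 77.6 and 79.4 with PBS against 69.7, 71.5 and 73.7 with cetuximab in SCC6. For SCC25 it ranged from 62.7 to 68.6 with PBS and from 64.7 to 70.3 with cetuximab. Its part in the share was not tested.

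**Figure D4:**
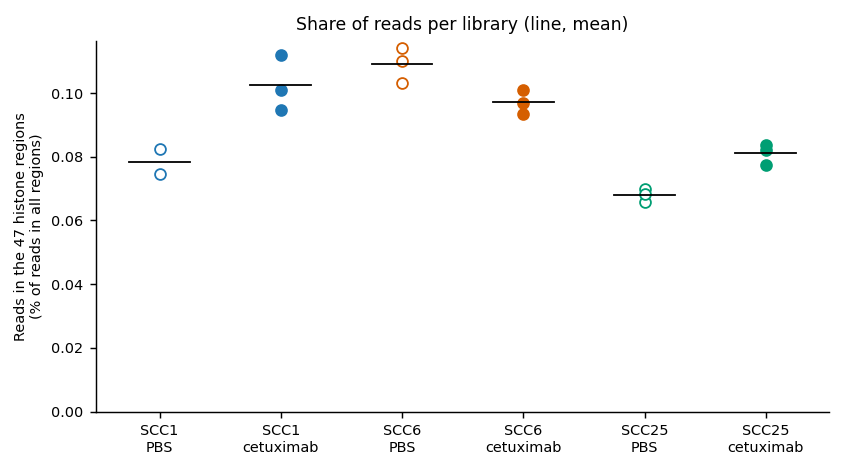
Reads in the 47 histone regions as a percentage of reads in all regions, for each library, with open points for PBS, filled points for cetuximab and a line at the group mean. The share was higher with cetuximab in SCC1 and SCC25 and lower in SCC6.

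In SCC1, 5 histone regions rose with cetuximab and none fell, of 47 tested, or 10.6%. Of all 86321 tested regions 11.1% were called, 4.57% higher and 6.56% lower. Of 14551 promoters 15.2% were called, 13.6% higher and 1.6% lower, so the share of histone regions that rose was close to that of promoters. The median log2 change was 0.32 over the histone regions, 0.18 over promoters and -0.091 over all regions. Values above 0 numbered 41 of the 47, against 9524 of 14551 over promoters and 38551 of 86321 over all regions. Without SCC1 PBS replicate 1 no region was called by limma, with a median of 0.22, and edgeR and DESeq2 on all SCC1 libraries called 6 and 3. Leaving out cetuximab replicate 2 of this line gave 8 calls, and leaving out cetuximab replicate 1 gave 1. With cetuximab replicate 3 or PBS replicate 3 left out there were 2. With each library centred on its median, 15 rose and none fell, and with the GC trend removed 12 rose. The shares of all regions and promoters called under these settings were not compared. With a PBS library left out, 1 control library remained. Over all 86321 regions edgeR called 11051 and DESeq2 5676.

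The regions that rose in SCC1 came from several families. H4C8, an H4 gene at the end of the first block (chr6:26285366-26286203), had a signal of 95 and 116 with PBS and 201, 156 and 186 with cetuximab. H1-3, a somatic linker histone gene (chr6:26234946-26235312), had 20.8 and 25.7 with PBS and 72.3, 50.6 and 48.5 with cetuximab. H2AC16, an H2A gene in the third block (chr6:27832766-27833412), had 41.6 and 67 with PBS and 91.4, 93.4 and 119 with cetuximab. Treated and untreated libraries did not overlap in these 3. The log2 changes were 0.77 (SE 0.22, limma adjusted p = 0.00935), 1.25 (SE 0.37, limma adjusted p = 0.0122) and 0.91 (SE 0.28, limma adjusted p = 0.0154).

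Each of these calls was lost when single libraries were left out. Leaving out a PBS library leaves 1 control, and that loss of replication cannot be told apart from an effect of the library itself. Without SCC1 PBS replicate 1 the limma adjusted p was 0.29 for H4C8, 0.203 for H1-3 and 0.477 for H2AC16. H4C8 had an adjusted p of 0.054 with PBS replicate 3 left out and 0.0801 with cetuximab replicate 1 left out, by limma. The same libraries gave H1-3 values of 0.0627 and 0.114, and leaving out cetuximab replicate 3 gave H2AC16 a value of 0.0951. The other 2 regions called, named after their values were seen, were H2BC17 at 1000 bases from a start (1.19, limma adjusted p = 0.0277) and H4C11 (1.00, limma adjusted p = 0.041). The H4C11 values were 16.9 and 52.5 with PBS and 60.9, 60.3 and 61 with cetuximab.

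In SCC6, 1 of 47 histone regions rose and none fell, or 2.13%. Of all tested regions 27.5% were called, 16.9% higher and 10.6% lower, and of 14093 promoters 14.6% were called, 3.77% higher and 10.9% lower. The median log2 change was -0.14, against 0.11 over all regions and -0.11 over promoters. Values below 0 numbered 34 of the 47, against 37338 of 86315 over all regions and 9396 of 14093 over promoters. Relative to the median of all regions, with each library centred on it, 1 histone region rose and 10 fell, with a median of -0.32. The shares of all regions and promoters called under that setting were not compared. By edgeR 1 rose and 2 fell, and by DESeq2 none rose and 2 fell. With a pseudocount of 5 there was 1 in each direction, a setting whose shares over all regions were not compared. Over all 86315 regions edgeR called 13184 higher and 11561 lower, and DESeq2 9287 higher and 9496 lower.

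The region that rose was H4C9, with 18.1, 30.8 and 18.5 with PBS and 54.6, 41.8 and 30.4 with cetuximab. The groups overlapped, since 1 treated library lay just below the highest untreated one. The log2 change was 0.89 (SE 0.29, limma adjusted p = 0.0199). The adjusted p was 0.0739 without SCC6 PBS replicate 1, 0.0765 without SCC6 PBS replicate 3, 0.138 without SCC6 cetuximab replicate 1, 0.0664 without SCC6 cetuximab replicate 2, 0.121 by DESeq2 and 0.316 with the GC trend removed.

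In SCC25, none of 46 histone regions changed by limma, edgeR or DESeq2. At an unadjusted p under 0.05 limma gave 7 of the 46, against 11405 of all 86315 regions and 1240 of 14511 promoters. The line gave few calls anywhere, with 0.315% of all tested regions, 0.0405% higher and 0.275% lower, and 0.0551% of promoters, 0.0276% in each direction. The median log2 change was 0.12 over the histone regions, 0.024 over promoters and -0.083 over all regions. Values above 0 numbered 37 of the 46, against 7804 of 14511 over promoters and 35289 of 86315 over all regions.

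**Figure D5:**
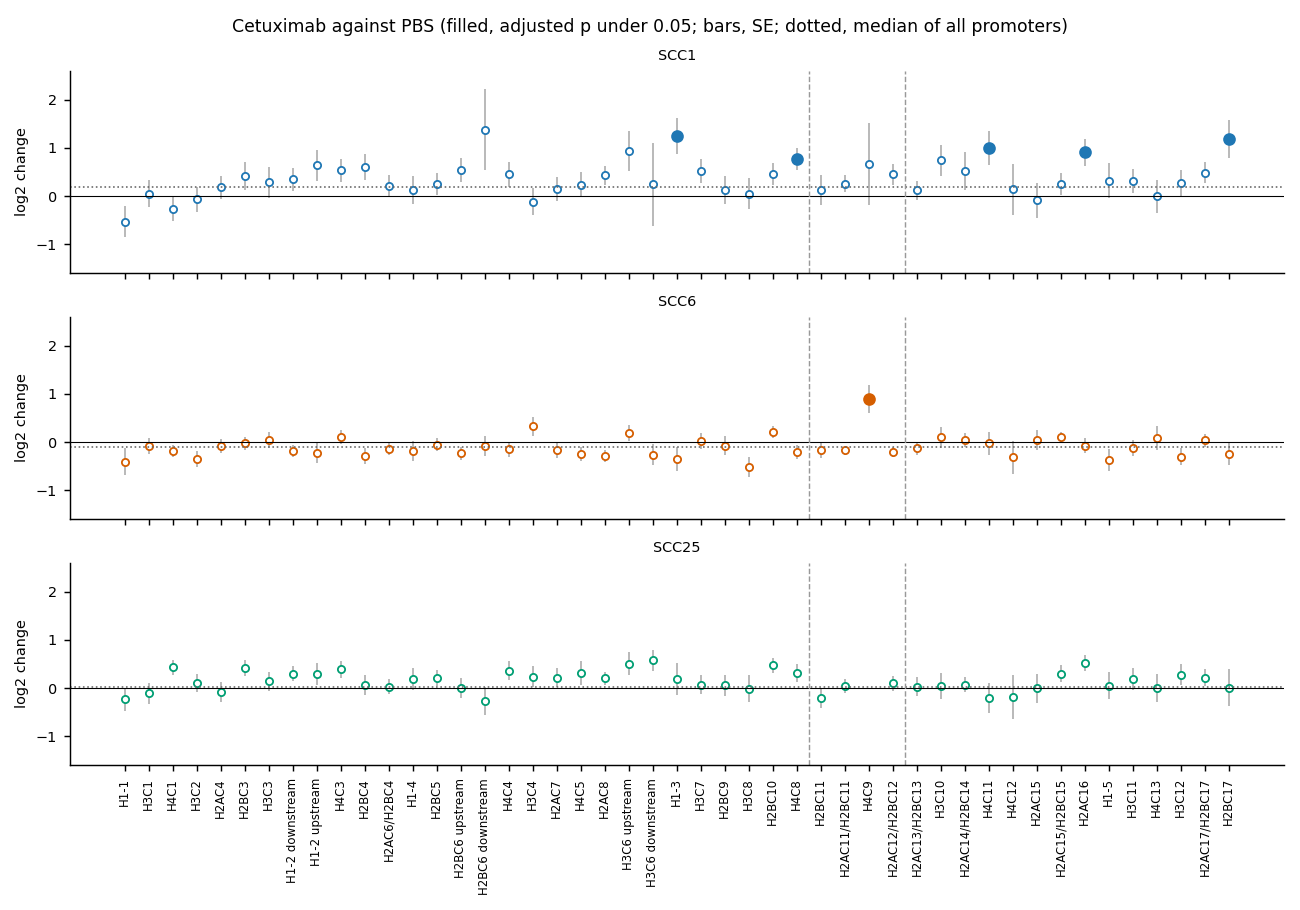
Log2 change of signal with cetuximab against PBS for each histone region in each line, with SE bars, filled points for a limma adjusted p under 0.05 and a dotted line at the median of all promoters. Filled points number 5 in SCC1, 1 in SCC6 and none in SCC25, and no point is drawn for H4C9 in SCC25, which was not tested.

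The family leaders gave no call within a line. H2AC11/H2BC11 had a log2 change of 0.26 in SCC1 (95% interval -0.09 to 0.62), -0.17 in SCC6 (-0.37 to 0.03) and 0.04 in SCC25 (-0.25 to 0.34). H4C1 had -0.26 in SCC1 (-0.75 to 0.23), -0.18 in SCC6 (-0.43 to 0.07) and 0.43 in SCC25 (0.10 to 0.77), and H3C7 had 0.53 in SCC1 (0.04 to 1.01), 0.02 in SCC6 (-0.31 to 0.35) and 0.07 in SCC25 (-0.33 to 0.48). H1-2 downstream had 0.35 in SCC1 (-0.13 to 0.83), -0.18 in SCC6 (-0.44 to 0.09) and 0.30 in SCC25 (-0.03 to 0.63). Intervals are unadjusted, and the limma adjusted p-values ran from 0.162 to 0.937. H1-1 had -0.53 in SCC1 (limma adjusted p = 0.309), -0.41 in SCC6 (limma adjusted p = 0.285) and -0.23 in SCC25 (limma adjusted p = 0.716).

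Over all lines, with the line as a covariate, 3 of 47 histone regions rose with cetuximab and none fell, or 6.38%. Of all tested regions 12.2% were called, 5.14% higher and 7.04% lower, and of 14433 promoters 3.86% were called, 1.86% higher and 2.0% lower. They were H4C9 (0.80, SE 0.21, limma adjusted p = 0.0143), H2BC10 (0.37, SE 0.098, limma adjusted p = 0.0155) and H2AC16 (0.42, SE 0.14, limma adjusted p = 0.0437). At H2BC10, an H2B gene in the first block, the signal was 100 and 136 with PBS and 160, 144 and 182 with cetuximab in SCC1. It was 132, 137 and 150 with PBS and 177, 164 and 146 with cetuximab in SCC6. For SCC25 it was 95, 81.5 and 81.4 with PBS and 122, 117 and 117 with cetuximab. Treated libraries lay above untreated ones in SCC1 and SCC25 and overlapped them in SCC6. H4C9 was not tested in SCC25, where its PBS libraries are at 1 read, and in SCC1 its change had a limma adjusted p of 0.697 with at most 6.35 in any SCC1 library, so that SCC6 is the 1 line with a call. H4C9 passed the filter over all lines at a mean signal of 13, with group means of 22.5 and 42.2 in SCC6 and at most 4.85 elsewhere. Over all lines H4C9 had a limma adjusted p of 0.234 with quantile normalization and 0.059 with the GC trend removed. H2AC16 had 0.12 without SCC1 PBS replicate 1, and 11 other libraries also ended its call, each by itself, when left out, with a limma adjusted p of 0.0568 to 0.0706. Without SCC6 cetuximab replicate 1, 1 region was called, and the share over all regions in that fit was not compared.

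The change differed between lines at 2 of 47 histone regions (4.26%, where 13.2% of all tested regions and 13.5% of promoters were called), by limma's F-test for a line-by-treatment interaction. H4C8 had log2 changes of 0.77 in SCC1, -0.20 in SCC6 and 0.31 in SCC25 (limma adjusted p of the interaction = 0.0256). H2AC16 had 0.91, -0.07 and 0.52 (limma adjusted p of the interaction = 0.0331), with 128, 131 and 142 in SCC6 PBS against 146, 112 and 126 in SCC6 cetuximab, and 75, 73.6 and 80.6 in SCC25 PBS against 111, 110 and 108 in SCC25 cetuximab. Both calls were lost without SCC1 PBS replicate 1 (limma adjusted p = 0.108 and 0.135). No histone region was called without SCC6 PBS replicate 2 or 3, or without SCC6 cetuximab replicate 2 or 3. With all libraries 12 of 47 had an unadjusted p under 0.05, against 23732 of all 86315 regions and 4193 of 14433 promoters. There were 8 calls with SCC1 cetuximab replicate 2 left out, 5 with PBS replicate 3 of that line left out, and 4 without SCC25 cetuximab replicate 1 or 3. The calls over all regions with a library left out were not compared. By edgeR 10 of 47 histone regions were called and by DESeq2 8, against 17112 and 15756 of all 86315 regions. These shares were close to those over all regions.

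The lists read beside the cluster held few tested regions, so a low number of treatment calls there is not by itself a low share. Of promoters, 15.2% were called in SCC1 and 14.6% in SCC6. The shares called in SCC1 were 33.3% for histone genes elsewhere, 18.2% for histone variants and 13.6% for histone locus body factors, with no call among the neighbouring genes. In SCC1, 1 of 3 tested regions of histone genes elsewhere rose, 2 of 11 of histone variants, 3 of 22 of histone locus body factors and 0 of 10 of the neighbouring genes, and none fell. In SCC6, 1 of 3 fell among histone genes elsewhere, 0 of 11 variant regions changed, 3 of 23 factor regions fell and 1 of 10 neighbours fell. The region at issue among histone genes elsewhere was H2AC25/H2BC26 in both lines, with log2 changes of 0.72 in SCC1 (limma adjusted p = 0.00556) and -0.37 in SCC6 (limma adjusted p = 0.0165). Unadjusted p-values under 0.05 were found for 3 of the 10 neighbours in SCC1 and 1 of the 11 variant regions in SCC6. Over all regions they were found for 20798 of 86321 in SCC1 and 34085 of 86315 in SCC6. No region of these 4 lists was called in SCC25 by limma, where an unadjusted p under 0.05 was found for 2 of 22 factor regions and none of the others. Of the squamous markers, 2 of 9 regions were called higher in SCC1, at KRT5 (1.44, limma adjusted p = 0.000133) and KRT6A (1.03, limma adjusted p = 0.0275), and none lower. By sign 6 of the 9 were above 0 there and 3 below. DSG3 was among the latter, with 36.4 to 49.1 with PBS and 7.62 to 26.6 with cetuximab. In SCC6 1 of 6 rose, at KRT5 (0.93, limma adjusted p = 0.0125), and none was called over all lines. Of the 2 regions of other cell types, COL1A1 rose in SCC1 (0.66, limma adjusted p = 0.0382) and over all lines (0.40, limma adjusted p = 0.0153). The summed signal of the squamous list was 431 to 644 with PBS and 601 to 823 with cetuximab in SCC1, 248 to 289 and 240 to 281 in SCC6, and 504 to 529 and 456 to 541 in SCC25. That of COL1A1 and COL1A2 was 193 to 227 with cetuximab in SCC1, 126 to 154 in SCC6 and 160 to 205 in SCC25. The part of these in the changes of the histone regions was not tested.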

How the data were processed

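The authors trimmed adapters with Trim Galore 0.5.0, aligned reads to hg19 with Bowtie2 2.3.2, removed duplicates and mitochondrial reads with Picard 2.18 and filtered reads with SAMtools 1.9. MACS2 called broad peaks in each library, and DiffBind made 1 set of regions. Cutoffs are not given in the sources used here. The deposited region values are a signal, reads per region (0 set to 1) times 1 factor per library. The deposited peak lists hold, per peak, a fold enrichment (ratio), −log10 p and −log10 q values and an integer score, the last not read. Whole reads were recovered for 100% of values within 0.001.

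Samples were grouped by line and treatment from the labels. The plan named edgeR for counts; since the values are scaled signal, the tests were limma (3.58.1, trend and robust, two-sided) on log2(signal + 1), after the 25% of regions with the lowest mean were left out, with Benjamini-Hochberg adjustment at 0.05 over all tested regions. The mean was taken over all libraries of a comparison, so a region near the floor in 1 group, such as H4C9, could pass through the others. Fold changes on this scale understate the change of low regions. The recovered reads were also tested with edgeR 4.0.16 and with DESeq2 1.42.0. edgeR called 11051, 24745 and 968 of all regions for treatment in SCC1, SCC6 and SCC25. Other alternatives were median centring, quantile normalization, removal of the GC trend, a pseudocount of 5, no filter, a replicate block, 1 fit over all libraries, a 500-base window, stricter peaks and each library left out.

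The members and lists were chosen with earlier results of these data known. Regions were matched to GENCODE release 44 start sites on GRCh37. Regions named were the 3 higher and 3 lower with the smallest adjusted p among those called in each comparison, the 3 smallest for the interaction, the region with the highest mean signal of each family, and those of H1-1, H1-6, H2AC1 and H2BC1; H2BC17, H4C11, H2BC3, H3C6 upstream and the genes outside the cluster were named after their values were seen. Ratios of reads carry an exact 95% interval that covers counting error only. Replicate pairs differed by more than counting noise (chi-square per degree of freedom 1.61 to 3.13). Scripts ran in Python 3.11.15 and R 4.3.3 and were tested on simulated data.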

Additional observations from a re-analysis of the deposited data

Results flagged for a closer look

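At 2 histone regions the response to cetuximab differed between lines by limma's test of the interaction. At H4C8 the adjusted p was 0.0256, with log2 changes of 0.77 in SCC1, -0.20 in SCC6 and 0.31 in SCC25. At H2AC16 the adjusted p was 0.0331, with log2 changes of 0.91, -0.07 and 0.52. The H4C8 signal in SCC6 was 108, 147 and 152 with PBS and 121, 113 and 115 with cetuximab, and in SCC25 it was 75.4, 76.4 and 68.7 with PBS and 80.1, 93.1 and 103 with cetuximab. Leaving out 1 library ended the call at H4C8 for 6 of the 17 libraries and at H2AC16 for 7 of them, with adjusted p-values of up to 0.108 and 0.135, both without SCC1 PBS replicate 1.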

How the results depend on the processing

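Of 270 alternative values of the counts of calls, medians and peak counts, 203 stayed close to the value reported, 67 moved and none reversed; why they moved was not tested. The count of histone regions called for treatment in SCC1 was 15 with median centring, 12 with the GC trend removed, 3 without the filter and 3 by DESeq2. In SCC6 it was 11 with centring, 0 with the GC trend removed or 1 fit over all libraries, 2 with a pseudocount of 5, 3 by edgeR and 2 by DESeq2. Over all lines it was 5 by DESeq2. For the interaction it was 15 with centring, 6 with quantile normalization, 7 with the GC trend removed, 4 with a pseudocount of 5, 10 by edgeR and 8 by DESeq2. It was 16 by DESeq2 for SCC6 against SCC1 and 27 with centring for SCC25 against SCC1. Apart from edgeR and DESeq2, shares over all regions under the alternatives of this section, left-out libraries included, were not compared. Replicate numbers did not pair the libraries (r of same-numbered libraries -0.042 to 0.0265), and a fit with the replicate block called 10 in SCC1, 2 in SCC6, 1 over all lines and 5 for the interaction, with H2BC10 over all lines at a limma adjusted p of 0.0517. Medians moved to 0.51 with centring and 0.49 with the GC trend removed for treatment in SCC1, and to -0.32 with centring in SCC6. For SCC6 against SCC1 they were 0.47 with centring, 0.96 with the GC trend removed, 0.38 by edgeR and 0.37 by DESeq2, for SCC25 against SCC1 -0.50, with edgeR -0.39 and DESeq2 -0.41, and for SCC25 against SCC6 -0.85 with centring and -1.12 with the GC trend removed. Histone regions with a peak had a median over libraries of 3.0 (SCC1), 10.5 (SCC6) and 5.5 (SCC25) at a −log10 q of at least 5, and 6.0, 18.5 and 5.0 with a peak over at least 50% of the region. With 1 library left out, a lone SCC1 PBS library being assumed to vary like the others, calls ranged from 0 to 8 in SCC1, 0 to 2 in SCC6, 0 to 0 in SCC25, 1 to 3 over all lines, 0 to 8 for the interaction, 22 to 31 for SCC6 against SCC1, 9 to 21 for SCC25 against SCC1 and 37 to 41 for SCC25 against SCC6. Medians then ranged from 0.22 to 0.43, -0.16 to -0.1, 0.077 to 0.18, 0.061 to 0.14, 0.47 to 0.65, -0.41 to -0.16 and -0.76 to -0.65, in the same order without the interaction. Signs changed for values that were not called: H4C1 in SCC1 (-0.54 to 0.022 with 1 library left out, positive without PBS replicate 1), H3C7 in SCC6 (-0.15 with centring, -0.023 with quantile normalization, -0.036 by DESeq2, and -0.11 to 0.2 with 1 library left out, among them -0.029 and -0.06), H3C7 in SCC25 (-0.079 to 0.17) and H2AC11/H2BC11 in SCC25 (-0.035 to 0.19, among them -0.027 and -0.033). With centring, limma called H2AC11/H2BC11 (-0.34, adjusted p = 0.0115) and H4C1 (-0.35, adjusted p = 0.0419) in SCC6 and H3C7 (0.71, adjusted p = 0.0376) in SCC1. Depth limits the regions at 1 to 5 reads, whose ratios have wide counting intervals.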
